A study of Mus musculus with 8 samples.

Results

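Calcium channel and calcium store genes were examined in Neuro2a cells, a mouse neuroblastoma line, after plasmid CRISPR activation directed at Scn2a. The genes were the 37 rows of a 55367-gene count table whose symbols name a voltage-gated calcium channel subunit (Cacna1, Cacna2d, Cacnb and Cacng genes), a ryanodine receptor (Ryr), an inositol trisphosphate (IP3) receptor (Itpr), or a component of store-operated calcium entry (Orai and Stim). They were matched by symbol, and the set was chosen with earlier results of these data known. Of the 37, 22 were expressed, that is, had a mean of at least 0.5 CPM over 6 libraries. CPM are counts scaled to the total of the library. In CRISPR activation a Cas9 that cannot cut DNA carries an activating domain, here VP64 (sadCas9-VP64), to the gene that a guide RNA (sgRNA) matches. The CRISPRa cultures received plasmid for sadCas9-VP64 (750 ng) together with sgRNA (also 750 ng). The no sgRNA cultures were given sadCas9-VP64 alone, in an amount the labels do not state. Both groups thus carried the activator and differed in the guide. Whether they also differed in the amount of activator or of total plasmid is not stated, and such a difference cannot be told apart from the guide. Below, "with the guide" names the CRISPRa group. Counts were analysed for 3 CRISPRa libraries (replicates 2, 3 and 5) and 3 no sgRNA libraries (replicates 2, 3 and 4) of poly(A)-enriched RNA, and 2 further labelled samples were not analysed here at the level of counts. The labels do not say whether the replicates were separate cultures, so p-values measure the spread between these samples. Within each group, replicates 2 and 3 were alike (chi-square per degree of freedom over genes 4.88 and 6.28), and CRISPRa replicate 5 and no sgRNA replicate 4 stood apart from them (15.3 to 18.7).

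Voltage-gated calcium channels open when the membrane depolarises and let calcium into the cell; the pore is the alpha1 subunit, and the alpha2delta and beta subunits govern its delivery to the membrane and its gating. IP3 receptors and ryanodine receptors release calcium from the endoplasmic reticulum (ER), the first in answer to IP3 made by phospholipase C and the second in answer to calcium itself. When the ER is emptied, the STIM proteins in its membrane sense the loss and open ORAI channels in the plasma membrane. In neurons the CaV2 channels (Cacna1a, Cacna1b and Cacna1e) drive transmitter release, and the L-type channels (Cacna1c and Cacna1d) couple activity to transcription.

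With the guide, 6 of the 23 calcium genes tested passed an adjusted p of 0.05, 5 higher and 1 lower. Higher were the pore genes Cacna1b and Cacna1c, the IP3 receptor genes Itpr2 and Itpr3, and the ryanodine receptor gene Ryr2, by 1.25-fold to 1.52-fold. Lower was Cacna1a, the pore of the P/Q-type channel, at 0.753 times the no sgRNA level. Without the 2 libraries that stood apart, the log2 fold changes were 0.33 for Cacna1b, 0.22 for Cacna1c, 0.61 for Itpr2, 0.37 for Itpr3, 0.41 for Ryr2 and -0.51 for Cacna1a, and all 6 passed (edgeR adjusted p 0.00193 to 0.0294). That fit had 2 libraries per group, and leaving out the most deviant ones lowers the spread, so its p-values are not separate support. When 1 library was left out, Cacna1a passed in 2 of 6 fits, Itpr3 in 3 and Cacna1c in 4. Cacna1b, Itpr2 and Ryr2 passed in all 6. The share of the tested calcium genes that passed was 26.1%, beside 18.7% of all 15117 genes tested (edgeR quasi-likelihood test, Benjamini-Hochberg adjustment over all of them). For higher genes the background was 9.47%, and for lower genes 9.25%. At an unadjusted p under 0.05 there were 12 of the 23, beside 31.3% of all genes tested. The median log2 fold change was 0.11 over the 23 genes and -0.0071 over all genes tested. One of the 23, Cacng6, passed the filter on low counts only through the CRISPRa libraries, where it was the higher.

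The 250 bases upstream of the annotated start of 4 of the 5 higher genes are shown first, because these genes moved the same way. They come from RefSeq (GRCm38.p6) and run 5′ to 3′ on the gene's strand, and capitals mark GC boxes, the letters GGGCGG on either strand (matches may overlap each other). The windows lie at chr2:24763153-24763402 (minus strand, Cacna1b), chr6:146502224-146502473 (minus, Itpr2), chr17:27057054-27057303 (plus, Itpr3) and chr13:12106946-12107195 (minus, Ryr2). Cacna1c has several annotated starts and is not shown.
Cacna1b: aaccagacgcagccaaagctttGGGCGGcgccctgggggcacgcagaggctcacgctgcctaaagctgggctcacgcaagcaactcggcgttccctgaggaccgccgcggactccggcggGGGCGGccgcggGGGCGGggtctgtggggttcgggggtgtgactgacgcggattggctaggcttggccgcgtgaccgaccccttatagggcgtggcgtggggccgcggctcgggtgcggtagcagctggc
Itpr2: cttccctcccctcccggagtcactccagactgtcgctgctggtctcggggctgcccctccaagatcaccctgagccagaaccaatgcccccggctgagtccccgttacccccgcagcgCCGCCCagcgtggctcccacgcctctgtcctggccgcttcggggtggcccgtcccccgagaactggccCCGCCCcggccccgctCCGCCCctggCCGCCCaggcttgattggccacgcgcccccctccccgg
Itpr3: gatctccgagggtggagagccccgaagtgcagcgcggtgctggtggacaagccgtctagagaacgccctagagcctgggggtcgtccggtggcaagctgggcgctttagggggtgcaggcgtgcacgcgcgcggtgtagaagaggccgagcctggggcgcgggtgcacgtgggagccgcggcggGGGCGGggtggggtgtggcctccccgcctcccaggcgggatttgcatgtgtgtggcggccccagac
Ryr2: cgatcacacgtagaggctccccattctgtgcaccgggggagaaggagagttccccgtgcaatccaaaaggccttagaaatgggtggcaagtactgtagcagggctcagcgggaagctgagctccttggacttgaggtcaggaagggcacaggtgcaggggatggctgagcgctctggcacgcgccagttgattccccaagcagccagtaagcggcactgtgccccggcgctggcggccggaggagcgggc

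Cacna1b, Itpr2 and Itpr3 have GC-rich upstream sequence, with 72.0%, 74.4% and 72.0% G or C and 29, 22 and 25 CpG dinucleotides, and hold 3, 4 and 1 GC boxes. Ryr2 has 63.2% G or C, 14 CpG and no GC box in these 250 bases. In the full 300-base RefSeq windows, which run on past the start, the counts of GC boxes are 3 for Cacna1b, 5 for Itpr2, 1 for Itpr3 and 2 for Ryr2. RefSeq gives windows for 29 of the 37 calcium genes, 38 windows in all. In their upstream 250 bases, 57.9% of these 38 hold a GC box, beside 32.7% of all 32851 windows. The median number of CpG in these 250 bases is 15 for the windows of the calcium genes and 6 for all windows. A match in letters is a description of the sequence and not evidence of a bound site.

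The libraries held from 29739422 to 34248514 counts. Scn2a, the gene the guide was directed at, had 267, 279 and 231 counts in CRISPRa replicates 2, 3 and 5 and 190, 193 and 130 in no sgRNA replicates 2, 3 and 4. Its groups did not overlap, but the estimate of 0.48 on the log2 scale (SE 0.19) had an edgeR adjusted p of 0.0899 and did not pass. The authors' deposited table, over 8 samples, gives Scn2a 0.62 on the log2 scale with an adjusted p of 0.00138. All 20 genes of a list of interferon-stimulated genes rose with the guide, with a median log2 fold change of 5.22. Their summed level was 2447 to 2905 CPM against 209 to 222 CPM. Some of the 20 passed the filter on low counts only through the CRISPRa libraries, where they were the higher. Among these were Zbp1 and Oas2, at means of 0 and 0.0645 CPM without the guide. The part of this interferon response in the calcium gene results was not tested. The neuron and neuroblastoma markers were present at a summed 2033 to 2239 CPM with the guide and 2189 to 2306 CPM without it, Tubb3 among them, while the neurofilament genes Nefl and Nefm had at most 1 and 6 counts in a library. Of the 12 of these 14 markers that were tested, 3 rose (Tubb3, Uchl1 and Chga) and 2 fell (Phox2a and Hand2); Tubb3 and Uchl1 passed in only 2 and 1 of the 6 fits that left out 1 library. Macrophage and microglia markers summed to at most 1.65 CPM, with Cx3cr1, Adgre1 and Itgam at 0 counts. Glial markers summed to at most 13.3 CPM, with Olig1 and Olig2 at 0. Fibroblast and endothelial markers summed to 22.2 to 31.5 CPM with the guide and 39.5 to 44.7 CPM without it, with Kdr at 0; 1 of the 6 tested rose and 2 fell, and their part in the results was not tested. In the list of muscle markers, which matters for the ryanodine receptors, Myh3 alone stood above 5 CPM, at 227 CPM with the guide and 232 CPM without it, and Myh1 was at 0. The summed muscle list was 226 to 239 CPM with the guide and 233 to 247 CPM without it, and 1 of its 4 tested genes rose, Actc1, from 0.0222 to 0.404 CPM; it had at most 14 counts and passed the filter on low counts only through the CRISPRa libraries. In bulk RNA, fewer cells expressing a gene and less of its RNA per cell cannot be told apart.

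The pore-forming genes were the first group. Of 10 alpha1 genes, 6 were expressed. They cover the CaV2 channels of P/Q type (Cacna1a) and N type (Cacna1b), the L-type channel CaV1.2 (Cacna1c) and all T-type channels, which open near the resting potential (Cacna1g, Cacna1h and Cacna1i). The L-type genes Cacna1d, which is typical of neuroendocrine cells, and Cacna1s and Cacna1f, of skeletal muscle and retina, had at most 2 counts in any library, as did Cacna1e, the R-type pore. Cacna1d and Cacna1e had 0 counts in all 6 libraries.

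Levels between genes were compared per kilobase of exon, from the gene lengths in the count table. In the no sgRNA libraries Cacna1i was the most abundant pore at 9.60 ± 1.02 CPM per kilobase (SD, n = 3), followed by Cacna1c at 5.54 ± 0.860 and Cacna1b at 3.27 ± 0.243. Cacna1a stood at 1.57 ± 0.221 CPM per kilobase, Cacna1g at 1.22 ± 0.0841 and Cacna1h at 0.327 ± 0.0286. These 6 levels did not overlap between neighbours in the order over the 3 libraries. Cacna1i and Cacna1c thus made up 44.6% and 25.6% of the alpha1 signal per kilobase without the guide.

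**Figure D1:**
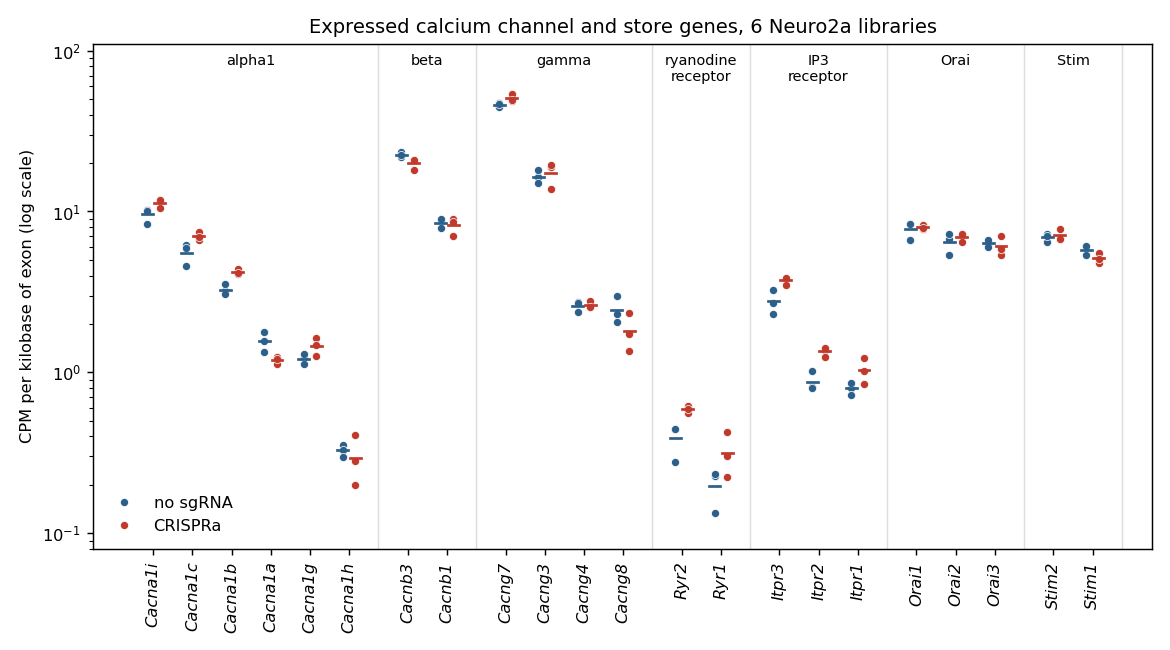
Level of the 22 expressed calcium genes in CPM per kilobase of exon on a log scale, grouped by role, in the 3 no sgRNA libraries (blue points) and the 3 CRISPRa libraries (red points), with horizontal bars for the group means. Cacng7 is the most abundant per kilobase at 46.1 CPM per kilobase without the guide, and Ryr1 the least at 0.198.

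Cacna1b (chromosome 2, 24603887 to 24763152, minus strand, protein coding, GRCm38) encodes the N-type pore CaV2.2, a main channel of transmitter release in sympathetic neurons. It stood at 43.7, 40.8 and 41.1 CPM in CRISPRa replicates 2, 3 and 5 and at 31.8, 35.2 and 30.6 CPM in no sgRNA replicates 2, 3 and 4. Every library with the guide lay above every library without it. The log2 fold change was 0.35 (SE 0.08), with an edgeR adjusted p of 0.00979, and it passed in all 6 fits that left out 1 library and in all 13 other alternatives.

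Cacna1a (chromosome 8, 84338639 to 84640246 in the count table, plus strand) encodes CaV2.1, the P/Q-type pore that shares the task of transmitter release with CaV2.2. Its values were 15.3, 13.9 and 14.9 CPM with the guide and 22.01, 19.3 and 16.6 CPM without it, so each CRISPRa library lay below each no sgRNA library. The log2 fold change was -0.41 (SE 0.12), with an edgeR adjusted p of 0.0255. The call was lost without CRISPRa replicate 2 (adjusted p 0.0536) or 3 (0.104) and without no sgRNA replicate 2 (0.109) or 3 (0.0727). Exons of an antisense gene, Gm16183, cover 3.81% of those of Cacna1a, and whether the counting used strand is not given in the sources used here.

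The closely related pores Cacna1b and Cacna1a thus moved in opposite directions. Their ratio per kilobase was 3.53, 3.64 and 3.42 with the guide and 1.79, 2.26 and 2.29 without it. The share of Cacna1a in the alpha1 signal per kilobase was 4.68% ± 0.363 with the guide and 7.28% ± 0.460 without it (SD, n = 3), with no overlap between the groups. For Cacna1b that share was 16.5% ± 0.828 and 15.3% ± 1.25, and the groups overlapped. The ratio was chosen after the values were seen and is given without a test.

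Cacna1c (chromosome 6, 118587240 to 119196890 in the count table, minus strand) encodes CaV1.2, the L-type pore that dihydropyridine drugs block. It was the calcium gene with the most counts and stood at 145, 162 and 153 CPM with the guide and 135, 129 and 99.6 CPM without it. The groups did not overlap, with no sgRNA replicate 4 well below the other two controls. The log2 fold change was 0.33 (SE 0.09), with an edgeR adjusted p of 0.0202. It was 0.21 without no sgRNA replicate 4 (adjusted p 0.0511), 0.29 without CRISPRa replicate 3 (0.0823), and 0.17 when the trend of each library with gene length was removed (0.0977).

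Among the T-type pores, Cacna1i (CaV3.3) stood at 116, 117 and 103 CPM with the guide and 101, 100.04 and 83.0 CPM without it. The groups did not overlap, but the log2 fold change of 0.23 (SE 0.08) had an edgeR adjusted p of 0.0592. It passed in 8 of 13 alternatives, DESeq2 among them (0.0392). Of the 6 fits that left out 1 library, it passed in 1, that without CRISPRa replicate 5 (0.0253). With the gene-length trend removed the log2 fold change was 0.17 (edgeR adjusted p 0.138). Cacna1g (CaV3.1) stood at 14.8 ± 1.97 CPM against 12.3 ± 0.852 CPM (SD, n = 3), with an edgeR adjusted p of 0.208. For Cacna1h (CaV3.2), the expressed calcium gene with the lowest CPM, the values were 2.88 ± 1.01 and 3.20 ± 0.279 CPM (adjusted p 0.724). Summed over the 10 alpha1 genes, the level was 340 ± 12.5 CPM with the guide and 283 ± 33.9 CPM without it (SD, n = 3), from 328 to 353 against 244 to 305.

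The auxiliary subunits showed a gap in this cell line. None of the 4 alpha2delta genes was expressed, the subunits that the drug gabapentin binds (Cacna2d1 and Cacna2d2) included. Cacna2d3 had 0 counts in all libraries, and Cacna2d1, Cacna2d2 and Cacna2d4 had at most 2, 6 and 4. Together they summed to at most 0.246 CPM in a library, beside at least 244 CPM of alpha1 transcripts. A count of 0 limits a level only to 0.0876 to 0.101 CPM at these depths, taking 3 counts as the floor.

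Of the 4 beta genes, whose products bind the alpha1 subunit inside the cell, Cacnb3 and Cacnb1 were expressed, while Cacnb2 and Cacnb4 had at most 2 counts. Per kilobase Cacnb3 took 72.6% ± 1.30 of the beta signal without the guide and 70.8% ± 1.09 with it (SD, n = 3). Cacnb3 stood at 83.3, 83.9 and 72.1 CPM with the guide and 87.5, 93.7 and 89.8 CPM without it. All CRISPRa libraries lay below the controls, but the log2 fold change of -0.20 (SE 0.08) did not pass (edgeR adjusted p 0.0870). Cacnb1 stood at 37.2 ± 4.67 and 38.6 ± 2.66 CPM, with an adjusted p of 0.687. The beta sum was 117 ± 11.2 CPM with the guide and 129 ± 4.88 CPM without it, ranges of 104 to 124 and 125 to 135 CPM. The beta and alpha1 sums thus lay on opposite sides of their controls; these sums were not tested.

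The gamma group was led by Cacng7. Cacng2, Cacng3, Cacng4 and Cacng8 encode transmembrane AMPA receptor regulatory proteins, Cacng5 and Cacng7 are of a second class of these, and Cacng1 and Cacng6 belong to the branch found in muscle calcium channels. Cacng7 was the most abundant of all 37 genes per kilobase, at 46.1 ± 1.09 CPM per kilobase without the guide and 50.6 ± 3.05 with it (SD, n = 3). Its values were 132, 118 and 120.1 CPM with the guide and 115, 109.5 and 113 CPM without it. These ranges did not overlap, but the log2 fold change of 0.12 (SE 0.07) did not pass (edgeR adjusted p 0.242).

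Cacng3 followed at 16.5 ± 1.62 CPM per kilobase without the guide; its log2 fold change was 0.06 (edgeR adjusted p 0.785), with CRISPRa replicate 5 at 38.1 CPM and the other CRISPRa libraries at 52.8 and 53.9 CPM. In the 4 libraries numbered 2 and 3 it was 0.29 with an adjusted p of 0.0114. Cacng4 (9.41 ± 0.474 against 9.26 ± 0.719 CPM) and Cacng8 (4.26 ± 1.17 against 5.73 ± 1.10 CPM) had overlapping groups and adjusted p-values of 0.981 and 0.192. Cacng6 had 20, 23 and 14 counts with the guide and 8, 6 and 8 without it, a log2 fold change of 1.24 (SE 0.55) at an edgeR adjusted p of 0.132, and at a mean of 0.406 CPM lay just under the limit for expressed genes; the next gene above the limit was Cacna1h at 3.04 CPM. Cacng7, Cacng8 and Cacng6 lie side by side on chromosome 7, with gaps of 22.5 kb and 8.55 kb, and their estimates were 0.12, -0.44 and 1.24, none past the threshold. Cacng2 and Cacng5 had 0 counts and Cacng1 at most 2. On chromosome 11 the neighbours Cacng1, Cacng4 and Cacng5 had 1 expressed gene among them, Cacng4.

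The calcium release channels of the ER made up the group in which every expressed gene had a higher estimate. The 3 IP3 receptor genes summed to 72.5 ± 1.93 CPM with the guide and 52.4 ± 3.39 CPM without it (SD, n = 3), in ranges of 70.5 to 74.4 and 48.5 to 54.4 CPM. Itpr3 led the family per kilobase, with 62.0% ± 5.19 of its signal without the guide and 61.0% ± 2.32 with it. Itpr2 held 19.9% ± 2.83 and 22.1% ± 1.06, and Itpr1, the main form of cerebellar neurons, 18.1% ± 3.25 and 16.9% ± 3.33. The makeup of the family thus overlapped between the groups while its sum did not.

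Itpr2 (chromosome 6, 146108299 to 146502223, minus strand), the receptor most sensitive to IP3, had the largest log2 fold change among the 6 genes that passed. It stood at 20.4, 21.02 and 18.5 CPM with the guide and 15.2, 11.9 and 11.8 CPM without it. The groups did not overlap, and the log2 fold change was 0.61 (SE 0.12), with an edgeR adjusted p of 0.00298. This call was kept in all 6 fits that left out 1 library and in all 13 other alternatives.

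Itpr3 (chromosome 17, 27057304 to 27122223, plus strand) stood at 34.5, 34.8 and 31.6 CPM with the guide and 24.5, 29.2 and 20.9 CPM without it. No CRISPRa library overlapped a control, and the log2 fold change was 0.42 (SE 0.11), with an edgeR adjusted p of 0.0150. The adjusted p was 0.0511 without CRISPRa replicate 3, 0.0524 without no sgRNA replicate 2 and 0.0628 without no sgRNA replicate 4. Exons on the opposite strand, of Itpr3os among others, cover 2.58% of its exons. Itpr1 had 18.9 ± 3.49 CPM against 14.6 ± 1.26 CPM, overlapping groups, and an estimate of 0.36 on the log2 scale (SE 0.14) at an edgeR adjusted p of 0.0870; CRISPRa replicate 5 was its highest library and CRISPRa replicate 2 lay within the control range.

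Of the ryanodine receptors, Ryr2, best known as the release channel of heart muscle and widely used in brain, and Ryr1, that of skeletal muscle, were expressed at low levels. Ryr3 had at most 13 counts. Ryr2 (chromosome 13, 11553102 to 12106945, minus strand) stood at 17.9, 16.2 and 16.9 CPM with the guide and 12.7, 12.9 and 8.03 CPM without it. The groups did not overlap, with no sgRNA replicate 4 again the lowest, and the log2 fold change was 0.59 (SE 0.15), with an edgeR adjusted p of 0.0150. It passed in all 6 fits that left out 1 library. With the gene-length trend removed it was 0.40 with an adjusted p of 0.0511. Ryr1 had the larger estimate, 0.67 (SE 0.25), but its libraries ranged from 4.86 to 9.33 CPM and from 2.90 to 5.08 CPM, overlapped, and gave an edgeR adjusted p of 0.0779. Without the 2 libraries that stood apart the Ryr1 estimate was 0.18, with an adjusted p of 0.626, while it passed with DESeq2 (0.0455) and without CRISPRa replicate 3 (0.0283).

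**Figure D2:**
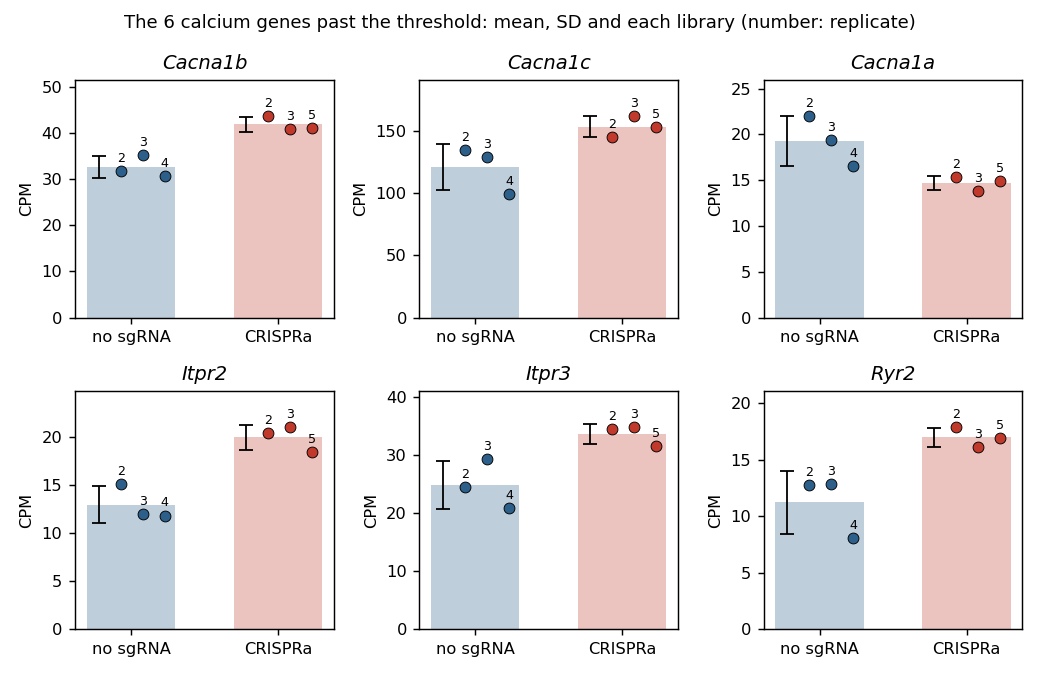
CPM in each library (points, numbered by replicate), group mean (bars, from 0) and SD (error bars beside the points) of the 6 calcium genes past an adjusted p of 0.05. Cacna1b, Cacna1c, Itpr2, Itpr3 and Ryr2 lie higher in every CRISPRa library, and Cacna1a lies lower, from 13.9 to 15.3 CPM against 16.6 to 22.01 CPM.

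None of the store-operated entry genes passed in the main edgeR fit. All 3 Orai genes, the pores, and both Stim genes, the ER sensors, were expressed, at 5.80 to 7.77 CPM per kilobase without the guide. Neighbours in the order of these 5 levels overlapped in their ranges. Orai1, the main pore of store-operated entry in many cells, had 17.8, 18.9 and 18.2 CPM with the guide and 19.2, 19.1 and 15.2 CPM without it, a log2 fold change of 0.02 (SE 0.11) at an edgeR adjusted p of 0.916. Orai2 stood at 42.5 ± 2.64 against 39.1 ± 5.90 CPM and Orai3 at 13.0 ± 1.83 against 13.6 ± 0.680 CPM, with overlapping groups and adjusted p-values of 0.513 and 0.735. Per kilobase the 3 Orai genes shared their signal nearly evenly, at 37.8%, 31.2% and 31.0% without the guide.

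Stim2, which senses small losses of ER calcium, had 34.8, 34.7 and 40.1 CPM with the guide and 37.3, 33.4 and 36.1 CPM without it (log2 fold change 0.02, SE 0.09, edgeR adjusted p 0.903). Stim1 stood at 53.3 ± 4.14 CPM with the guide and 60.2 ± 3.97 CPM without it, a log2 fold change of -0.19 (SE 0.08) that did not pass (adjusted p 0.117). When the gene-length trend was removed, Stim1 was at -0.26 with an adjusted p of 0.0297. It passed in 4 of the 13 alternatives, this one among them, and in 0 of the 6 fits that left out 1 library. The others used the replicate block on the 4 libraries numbered 2 and 3 (edgeR adjusted p 0.00564 to 0.0406). Summed Orai levels were 73.8 ± 4.05 and 70.5 ± 8.76 CPM, and summed Stim levels 89.8 ± 5.00 and 95.8 ± 3.85 CPM, with overlap between the groups in both cases.

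**Figure D3:**
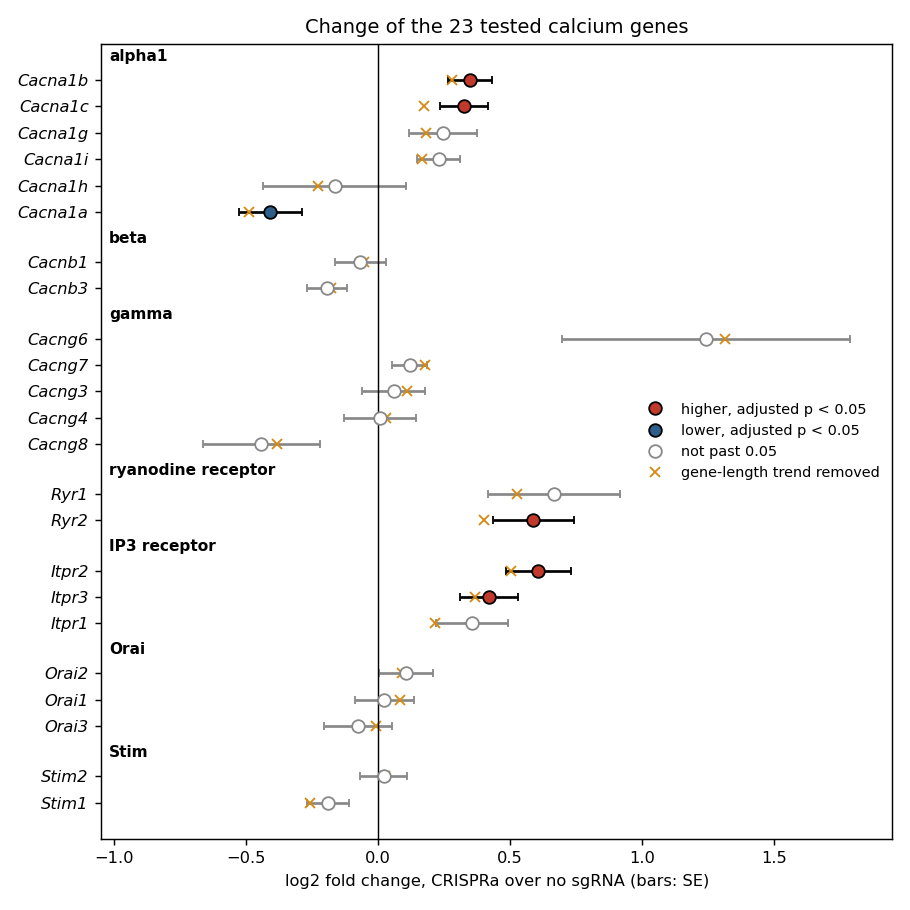
Log2 fold change from the edgeR fit with TMM factors, CRISPRa over no sgRNA, with SE (bars) for the 23 tested calcium genes by role. Filled circles passed an adjusted p of 0.05, and crosses give the estimate after the gene-length trend was removed. All ryanodine and IP3 receptor genes lie to the right of 0, Cacna1a lies at -0.41, and the Orai genes lie between -0.08 and 0.11.

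Over all genes tested, 9.47% passed higher and 9.25% lower. By role, 2 of the 6 tested alpha1 genes passed higher and 1 lower, with a median log2 fold change of 0.24. Of the IP3 receptor genes 2 of 3 passed, all higher (median 0.42), and of the ryanodine receptor genes 1 of 2 (median 0.63). None of the 2 beta, 5 gamma, 3 Orai and 2 Stim genes tested passed in the main edgeR fit, with medians of -0.13, 0.06, 0.02 and -0.08. There Cacng6, Stim1 and Cacnb3 had an unadjusted p under 0.05, and 0 of these genes passed by DESeq2 or limma-voom. Stim1, Cacng3 and Cacng7 passed in some of the other alternatives. Differences between the roles were not tested. The groups did not overlap for 10 of the 23 genes, 43.5%, beside 36.4% of all genes tested, 8 of them higher and 2 lower. The 8 include Cacng6, which passed the filter on low counts only through the CRISPRa libraries, where it was the higher.

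Many of the tested calcium genes were long. The median exon length was 9019 bases over the 23 tested calcium genes and 14802 over the 5 higher ones, beside 3927 over all genes tested, and 16 of the 23 were longer than that. Cacna1a, the lower gene, has 12310 bases, more than the higher genes Cacna1b (9942) and Itpr3 (9019). It has fewer than the higher genes Itpr2 (14802), Cacna1c (21864) and Ryr2 (28790). The part of gene length in the changes was not tested. Across the 23 genes the log2 fold change and the length had a Spearman correlation of 0.370, and across all 15117 genes of 0.153; genes of the same libraries are not independent, and this is a description. After the trend of each library with gene length was removed, 5 calcium genes passed, Cacna1b, Itpr2 and Itpr3 higher and Cacna1a and Stim1 lower. Cacna1c and Ryr2, with 21864 and 28790 bases, were no longer past the threshold.

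The authors' deposited table, which covers 8 samples and includes these 6, lists 26 of the 37 genes. Its sign was read as CRISPRa over no sgRNA because all 20 interferon-stimulated genes are positive in it. Of the 22 calcium genes with an adjusted p in the authors' deposited table, 7 are under 0.05, 6 higher and 1 lower, beside 28.6% of all 13798 such genes. They are the 6 genes above and Cacna1i, for which the authors' deposited table gives 0.30 on the log2 scale (adjusted p 4.12e-05). For Itpr2 the authors' deposited table gives 0.56 and for Cacna1a -0.44. The tables share libraries, so they are 2 readings of overlapping data.

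Genes that act with these channels were followed in 8 lists, 116 genes in all, of which 98 were tested. They hold 23 genes past the threshold, 17 higher and 6 lower, 23.5% of those tested beside 18.7% of all genes. The median log2 fold change over the 98 was 0.10. In the list of voltage-gated channel regulators 5 of 15 tested genes rose and none fell (edgeR adjusted p under 0.05). Of all genes tested, 9.47% passed higher and 9.25% lower. Gem, a small GTPase that inhibits voltage-gated calcium channels through their beta subunit, stood at 25.5 ± 1.30 CPM without the guide and rose to 65.7 ± 5.21 CPM with it (SD, n = 3). Its estimate was 1.35 on the log2 scale (SE 0.09), with an edgeR adjusted p of 2.55e-08. Stac2, an adaptor of L-type channels, rose from 20.6 ± 0.239 to 27.2 ± 1.56 CPM. Rims2 and Cabp1 were also among the 5, and each passed in 3 of the 6 fits that left out 1 library.

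Of 14 tested pumps and exchangers 3 rose and none fell, beside 9.47% higher and 9.25% lower of all genes tested. Atp2b4, a calcium pump of the plasma membrane, rose from 18.8 ± 1.21 to 27.5 ± 3.87 CPM (log2 fold change 0.53, edgeR adjusted p 0.00443). Atp2a3, an ER calcium pump, had a log2 fold change of 0.48 (adjusted p 0.0235), with adjusted p-values of 0.101 without CRISPRa replicate 5 and 0.103 without no sgRNA replicate 4. Slc8a2, a sodium-calcium exchanger, had 0.77 (adjusted p 0.0483), and this was lost when any library other than no sgRNA replicate 3 was left out (0.0840 to 0.147).

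In the list of mitochondrial uptake 2 of 10 tested genes rose and 1 fell, beside 18.7% of all genes tested in either direction. The uniporter pore Mcu rose from 29.4 ± 3.16 to 39.7 ± 4.16 CPM (log2 fold change 0.42, edgeR adjusted p 0.0114; 0.0685 without no sgRNA replicate 3). Vdac1, the channel of the outer mitochondrial membrane, fell from 754 ± 70.5 to 625 ± 13.3 CPM (-0.29, adjusted p 0.0133).

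Among store entry regulators and TRPC channels, 1 of 8 tested genes rose and 1 fell, beside 18.7% of all genes tested in either direction. Esyt1, a tether between the ER and the plasma membrane, rose from 172 ± 4.49 to 224 ± 2.44 CPM (log2 fold change 0.37, edgeR adjusted p 0.000592). Cracr2b, a regulator of Orai channels, had -0.60 (adjusted p 0.0377) and was past the threshold in 2 of the 6 fits that left out 1 library (0.111 without CRISPRa replicate 2, 0.131 without CRISPRa replicate 5, 0.121 and 0.111 without no sgRNA replicates 3 and 4). With the length trend removed its adjusted p was 0.0533.

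The ER group of calcium-binding proteins and channel partners went both ways. Of 18 tested genes 2 were higher (Hspa5 and Jph3) and 3 lower (Rcn3, Fkbp1b and Rcn2), beside 18.7% of all genes in either direction. Rcn2 was past the threshold in 2 of the 6 fits that left out 1 library. Hspa5, the ER chaperone BiP, rose from 643 ± 40.2 to 1038 ± 293 CPM (log2 fold change 0.67, edgeR adjusted p 0.00304), and Rcn3, a calcium-binding protein of the secretory pathway, fell from 283 ± 25.3 to 169 ± 37.8 CPM (-0.76, adjusted p 0.000775). Fkbp1b, which binds Ryr2 and stabilises its closed state, had -0.62 (adjusted p 0.0321); the adjusted p was above 0.05 when any library other than CRISPRa replicate 5 was left out (0.0582 to 0.140) and 0.0792 with the length trend removed. Casq2 and Trdn, which hold the store and its release channel together in muscle, had 0 counts.

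Downstream of calcium, 3 of 10 tested CaM kinase genes rose and 1, Camk2g, fell, beside 18.7% of all genes tested in either direction. Camk2g was past the threshold in 2 of the 6 fits that left out 1 library. Of the calcineurin and NFAT genes 0 of 10 passed (edgeR). Camk2b rose from 15.6 ± 1.23 to 35.0 ± 5.44 CPM (log2 fold change 1.15, edgeR adjusted p 1.26e-05) and Camk1d from 124 ± 11.6 to 157 ± 6.02 CPM (0.33, adjusted p 0.00471). Camk2d had 0.28 (adjusted p 0.0114), and 0.12 (0.208) with the length trend removed. Of 13 tested phospholipase C and Gq genes, which make IP3 or lead to it, 1 rose: Plcd3, from 36.6 ± 6.59 to 63.7 ± 4.17 CPM (0.79, adjusted p 0.000134).

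**Figure D4:**
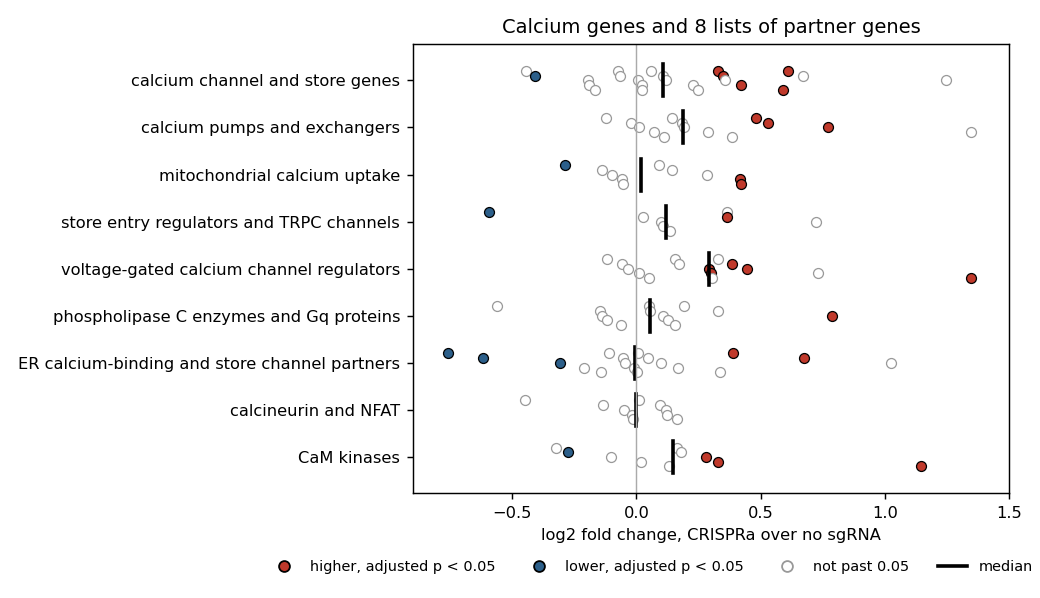
Log2 fold change, CRISPRa over no sgRNA, of each tested gene among the calcium genes and the 8 partner lists; filled points passed an adjusted p of 0.05 and black bars are list medians. Channel regulators have the highest median, 0.29, with Gem at 1.35, and the calcineurin and NFAT list holds no filled point.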

How the data were processed

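Per the submitters' processing notes, reads were processed with STAR 2.5.1b and featureCounts on the mouse build mm10 (GRCm38). The authors deposited a table of read counts per gene, with no normalisation, for 6 of 8 labelled samples; the annotation, the use of strand and the handling of reads with several matches are not given in the sources used here. The deposited table also gives gene lengths. A second table deposited by the authors, per the file headers a DESeq2 result, holds a signal (mean normalised count), log2 fold changes, a Wald score and p-values over 8 samples; its values were not recomputed.

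Counts were tested with edgeR 4.0.16 in R 4.3.3 (quasi-likelihood F test, TMM factors, filterByExpr, no covariate), adjusted by Benjamini-Hochberg over 15117 genes, and called at an adjusted p under 0.05. SE is the size of the log2 fold change over the square root of F. CPM uses column totals. The fit was tested on simulated data, in which fewer genes were changed than were called in the real data. Of 96 genes with a true log2 change of 0.5 in size, 52.1% were called. Of 95 with a change of 1, 85.3% were called, and of 14636 without a change, 0.109%. A gene that did not pass is thus not shown to be unchanged. Gene positions are from GENCODE M21, except for Cacna1a and Cacna1c, whose ends differ there. At most 1.83% (Cacng8) of the 50-base words of a calcium gene occur in another gene. Named were all expressed calcium genes and, per partner list, up to 3 called genes of at least 1 CPM with the largest change. Some genes that this rule names are not reported here. Rims2, Cabp1, Jph3, Rcn2, Camk2g and single markers were named after their values were seen. The genes, lists and tests were chosen with earlier results of these data known. Alternatives were other scalings, filters, DESeq2 1.42.0, limma-voom with limma 3.58.1, fits that leave out 1 library, a replicate block, removal of the length trend (lowess span 0.2), thresholds of 0.01 and 0.1 and, added after seeing the data, removal of the GC trend.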

Additional observations from a re-analysis of the deposited data

How the results depend on the processing

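The number of changed calcium genes was 6. It stayed from 5 to 9 under other scalings, filters and tools and the length or GC trend alone, and from 4 to 7 when 1 library was left out. It was 2 at an adjusted p under 0.01, 10 at 0.1, and 10 with the replicate block and the GC trend removed. At 0.01 the changed genes numbered 1417 of all genes against 2829, and 11 of the partner genes against 23, where the threshold itself is the cause. The median log2 fold change of the calcium genes was from 0.081 to 0.16 when 1 library was left out, the highest without CRISPRa replicate 5, and 0.18 with the replicate block and the GC trend removed; for the last the cause was not tested. The numbers 2 and 3 occur in both groups, but nothing says that they mark a shared culture. Deviations of libraries of equal number from their group mean had a correlation of 0.0045 across genes. That mean was taken over 2 libraries, so the 2 pairs give the same value. This single value cannot decide whether the numbers mark a shared culture. The 4 libraries numbered 2 and 3 leave out CRISPRa replicate 5 and no sgRNA replicate 4, which stood apart from them. The spread within groups is therefore smaller there, which favours small p-values. With the replicate block on the 4 libraries 9 calcium genes passed, the 6 among them, and without the block 8. With the block and the length trend removed, Cacna1c (0.10, adjusted p 0.185) and Ryr2 (0.26, 0.157) did not pass (edgeR). Cacng3, at 0.30 with the block, was past the threshold there and not with 6 libraries.

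Estimates near 0 changed sign in some settings, none with an edgeR adjusted p under 0.05. When 1 library was left out, Stim2 ranged from -0.044 to 0.067, Orai1 from -0.071 to 0.072, Orai2 from -0.0018 to 0.19, Cacng3 from -0.022 to 0.21, Orai3 from -0.18 to 0.021, Cacnb1 from -0.13 to 0.038, Cacng4 from -0.066 to 0.048 and Cacna1h from -0.46 to 0.063. On the 4 libraries numbered 2 and 3, Stim2 was at -0.026 with the block, -0.028 without it, -0.020 with the block and the length trend removed and -0.028 with the block and the GC trend removed. Orai1 was at -0.066, -0.066, -0.025 and -0.0049 in these settings, and Cacnb1 at 0.024 in the last. The causes were not tested. At these depths a gene with 0 counts in a library could still stand at up to 0.101 CPM.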
